A study of Mus musculus with 130 samples.

Results

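Glutathione S-transferases (GSTs) are liver enzymes that join glutathione to reactive or foreign molecules, which makes these easier to excrete. The cytosolic enzymes fall into classes, among them alpha (Gsta genes), mu (Gstm), pi (Gstp) and theta (Gstt). Alpha enzymes also act on lipid peroxides and the aldehydes formed from them, products to which iron-driven oxidation is known to contribute. Several GST genes are textbook targets of NRF2, the transcription factor that answers oxidative stress, and of the xenobiotic receptors CAR, PXR and AHR.

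The 10 genes described were chosen by symbol: Gsta1, Gsta2, Gsta3, Gsta4, Gstm1, Gstm2, Gstm3, Gstm4, Gstp1 and Gstt1. All 10 were found among the 35274 genes of the diet table and the 35711 genes of the strain panel table, and all 10 passed the filter on low counts in both. RNA of whole liver tissue was sequenced from male mice in 2 sets. In the diet set, C57BL/6J mice received chow, a diet with 50 ppm iron, one with 500 ppm iron, one with carbonyl iron at 2%, which is 20000 ppm, or a 2% carbonyl iron diet labelled with cellulose as its fibre source (called 2% iron with cellulose here). Each diet group had 3 mice. In the panel, 114 inbred strains received chow for 4 weeks and then the 2% iron diet for 6 weeks. A strain was represented by a single mouse, save for 129X1/SvJ with 2 mice. The panel held 56 BXD strains (derived from C57BL/6J and DBA/2J), 20 AXB/BXA strains (A/J and C57BL/6J), 4 BXH strains, 3 CXB strains and 31 other inbred strains. Every panel mouse ate the high-iron diet, so the panel has no low-iron group. The iron content of chow is not taken from the labels here, and chow may differ from the 50 ppm diet in more than iron.

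Library totals ran from 10420708 to 20357169 counts in the diet set and from 9407880 to 20572879 in the panel. All 7 hepatocyte markers were found in the diet set, and none was at 0 in every library of a diet group. In the panel libraries these markers summed to 55033 to 162932 CPM. In the library labelled BXD65/RwwJ, the summed level of 4 Y-linked genes was 3.94 CPM (counts scaled by library size), against 118 to 328 CPM in the other 114 panel libraries, so this library went against its label of a male mouse. One library stands under 2 labels. The columns labelled 500 ppm replicate 2 (C57BL/6J) and BXD19/TyJ (2% iron) held counts within 5% of each other in 92.8% of 13115 genes, for example 643 and 644 counts of Gsta4 and 3057 and 3066 of Gstt1. Both were the deepest of their set. The chi-square per gene between their counts was 5.68, and the lowest of any other pair was 11.1 within the diet set, 21.97 within the panel and 27.2 across the sets. Which label holds cannot be told from the sources used here. The counts of called members in comparisons with the 500 ppm group are therefore given with and without this library. Some other results of that group, such as the share of all genes called, are given with all libraries only. The other comparisons share the spread estimate that this library enters and were also fitted without it. That fit was added once the data had been seen.

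The summed level of 7 macrophage markers was 488.4 to 508.96 CPM on 2% iron and 120 to 201.9 CPM on 50 ppm, and that of 5 erythroid genes was 320 to 475 CPM against 68.0 to 109 CPM. Hepatocyte markers summed to 92680 to 98233 CPM on 2% iron and 81985 to 92216 CPM on 50 ppm. The part of these differences in the GST results was not tested, and in whole tissue fewer cells of a type and less RNA per cell cannot be told apart.

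In the mouse genome (GRCm38, GENCODE M21), the 4 mu genes lie side by side on chromosome 3 within 81.2 kb: Gstm3 (chr3:107963696-107969283), Gstm2 (chr3:107981702-107986453), Gstm1 (chr3:108012255-108017973) and Gstm4 (chr3:108040408-108044894), all on the minus strand. The alpha genes other than Gsta3 share a 173.015 kb stretch of chromosome 9: Gsta4 (chr9:78182774-78209349) and Gsta1 (chr9:78230656-78242684) on the plus strand and Gsta2 (chr9:78331018-78355788) on the minus strand. Gsta3 stands apart at chr1:21240589-21265661 on the plus strand. Gstp1 (chr19:4035407-4037985) and Gstt1 (chr10:75783813-75798584) are on the minus strand.

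The alpha class holds genes alike in sequence both before the start and in the transcripts, where likeness makes reads hard to assign. RefSeq promoter windows of GRCm38.p6 were at hand for 9 of the 10 genes, all but Gsta4. The stretches before the RefSeq start, without exonic bases, of Gsta1 (chr9:78230519-78230655, plus strand), Gsta2 (chr9:78347169-78347295, minus strand, inside the GENCODE span of the gene, whose longest transcript starts farther upstream) and Gsta3 (chr1:21240435-21240584, plus strand) are printed to compare a similar pair with a more distant relative. Capitals mark a match to the core of the antioxidant response element, the DNA element bound by NRF2.

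Gsta1: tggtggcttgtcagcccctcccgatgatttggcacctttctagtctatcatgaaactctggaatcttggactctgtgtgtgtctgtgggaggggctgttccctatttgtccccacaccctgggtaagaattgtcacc
Gsta2: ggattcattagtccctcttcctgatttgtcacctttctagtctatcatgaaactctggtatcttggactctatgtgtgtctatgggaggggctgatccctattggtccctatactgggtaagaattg
Gsta3: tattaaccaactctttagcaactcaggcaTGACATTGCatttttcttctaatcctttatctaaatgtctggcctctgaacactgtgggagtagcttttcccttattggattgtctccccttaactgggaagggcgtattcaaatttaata

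In a global alignment, the Gsta1 and Gsta2 stretches were identical at 80.0% of 140 columns, and those of Gsta1 and Gsta3 at 56.5% of 161. The likeness continues in the transcripts. Of all 31-base words in the Gsta1 transcripts, 7.14% occur in no other gene, 56.6% are shared with Gsta2 and 80.3% with the predicted gene Gm3776. The unique share was 39.3% for Gsta2, 61.5% for Gstp1 (38.5% shared with its neighbour Gstp2), 62.3% for Gstm3, 71.2% for Gstm1 and 87.8% for Gstm2. It was 96.7% for Gstm4, 97.3% for Gsta3, 99.5% for Gstt1 and 100% for Gsta4. Values of Gsta1 and Gsta2, and to a lesser degree of Gstp1, Gstm3 and Gstm1, therefore depend on how the authors' quantification split shared reads.

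The antioxidant response element core (TGACNNNGC, where N is any base) was searched on both strands over 250 bases before and 50 after the RefSeq start. It was found once among the 9 windows, in Gsta3 at 121 to 113 bases before the start. It occurs in 12.4% of 32851 mouse promoter windows of the same length. The AP-1 site (TGACTCA) was found once, on the minus strand of the Gstp1 window, and occurs in 5.20% of windows. Its surroundings (chr19:4037969-4037997, minus strand, site in capitals, 17 of the 29 bases in an annotated exon) are shown because it was the only match to this site among the 9 windows.

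Gstp1: ctccaacgtgtTGAGTCAgcatccggggc

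These matches describe letters in short windows and say nothing of binding, and distal elements lie outside them. The TATA box (TATAAA) occurred in the Gsta2 window alone of the 9, in its distal part, and in 13.6% of all windows.

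Levels per transcript length (TPM, scaled by transcript length and library size) put 3 genes far above the rest. Gsta3, Gstm1 and Gstp1 together made up 82.5 to 90.8% of the summed TPM of the 10 genes in the diet libraries and 77.8 to 92.1% in the panel. The summed level was 2481 ± 64.8 TPM on 50 ppm (mean ± SD, n = 3), 2444 ± 247 on 500 ppm (2561 and 2610 in the 2 mice other than the library under 2 labels), 2409 ± 166 on 2% iron, 2656 ± 226 on 2% iron with cellulose and 3518 ± 363 on chow. The 4 diets other than chow thus had similar sums, while the lowest chow mouse (3136 TPM) lay above the highest mouse of any other diet (2874 TPM). Within this sum the composition differed. Gsta3 held 41.1% on 50 ppm and 31.95% on 2% iron, Gstm1 24.99% and 39.9%, and Gstp1 22.4% and 11.8%. On chow these shares were 34.3%, 29.6% and 23.9%.

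**Figure D1:**
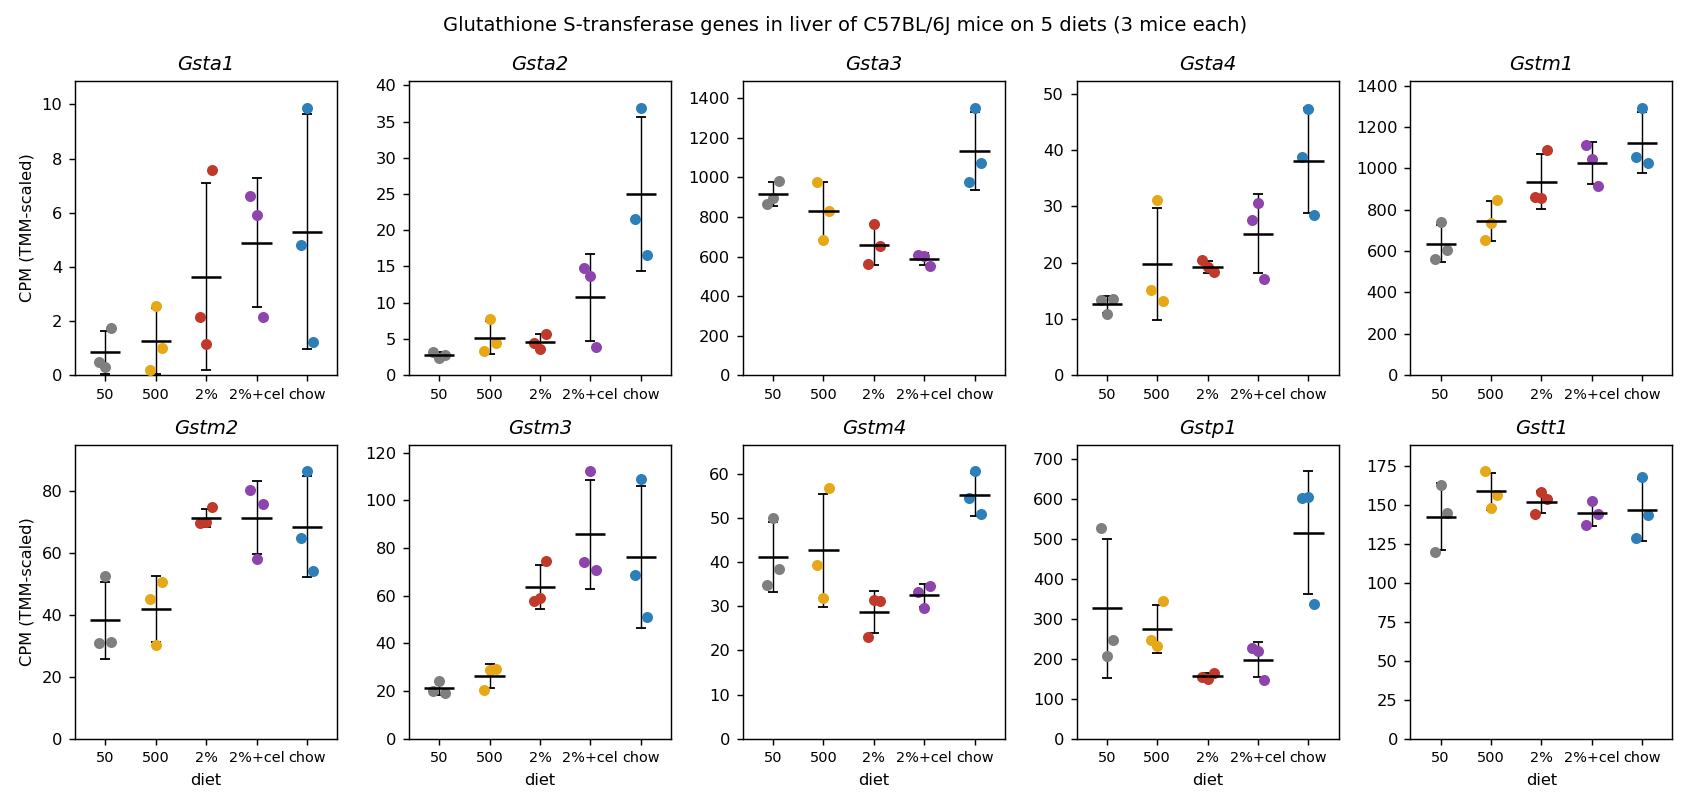
Levels of the 10 genes (vertical axis, TMM-scaled CPM, from 0) by diet (horizontal axis: 50 and 500 ppm, 2% iron, 2% iron with cellulose, chow) in C57BL/6J mice. Each point is 1 mouse, and bars give the mean and SD of 3 mice. Gstm3 lies between 19.2 and 29.3 CPM in the 6 libraries labelled 50 or 500 ppm and at 51.1 CPM or above in the other 9. The middle 500 ppm point is the library that also stands under the label BXD19/TyJ.

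The comparison of 2% iron with 50 ppm asked how the liver transcriptome differs at a large iron load. The mu genes Gstm3, Gstm2 and Gstm1 rose and Gstp1 fell, while the 4 alpha genes, Gstm4 and Gstt1 did not pass the test. These 4 calls among 10 genes compare with 15.7% of all 13560 genes tested (8.52% higher, 7.17% lower). Of the called genes 54.3% were higher, against 66.6% and 65.7% in limma on log2(TPM + 1) and log2(TPM + 0.1). The median log2 change was 0.59 over the 10 genes and 0.01 over all genes tested.

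Gstm3, a mu-class enzyme gene, was at 19.9, 24.3 and 19.2 CPM in the 50 ppm mice and at 57.7, 58.8 and 74.3 CPM in the 2% iron mice. The groups did not overlap, and the gene rose by 1.59 ± 0.26 on the log2 scale (± SE, edgeR quasi-likelihood test with Benjamini-Hochberg adjustment over all genes, adjusted p = 0.00176). It was called under each of the 13 alternative analyses tried, with a log2 change of 1.46 to 1.70. Gstm2 was at 30.9, 52.5 and 31.3 CPM on 50 ppm and at 69.7, 70.0 and 74.9 CPM on 2% iron. Its lowest mouse on 2% iron lay above its highest mouse on 50 ppm, and it rose by 0.90 ± 0.23 (adjusted p = 0.0190). Gstm1, the most abundant mu gene, was at 563, 739 and 607 CPM on 50 ppm and at 860, 856 and 1089 CPM on 2% iron. It rose by 0.56 ± 0.15 (adjusted p = 0.0221), again without overlap.

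Gstm4 was the exception among the mu genes, although it lies beside Gstm1. Its mice were at 34.9, 50.0 and 38.5 CPM on 50 ppm and at 23.1, 31.5 and 31.3 CPM on 2% iron, a log2 change of -0.52 ± 0.19 with an adjusted p of 0.0851. The difference between Gstm4 and the other mu genes was not tested.

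Gstp1, the pi-class gene, was at 528, 208 and 247 CPM on 50 ppm and at 154, 150 and 166 CPM on 2% iron. It fell by 1.06 on the log2 scale (SE 0.32, adjusted p = 0.0366), with replicate 1 of the 50 ppm group far above the other 2 mice. Without that mouse the log2 change was -0.54 and the call was lost, and Gstp1 was called in 6 of 13 alternatives. The sum of Gstp1 and its near copy Gstp2 was 370 ± 197 CPM on 50 ppm and 176 ± 9.67 CPM on 2% iron (SD, n = 3). Gstp1 is known as a male-biased liver gene, and replicate 1 was also the highest 50 ppm mouse in the summed level of 17 male-biased liver genes, at 39260 CPM against 12373 and 12352. That sum was 1381 to 2125 CPM on 2% iron, and all 17 genes fell. The part of the male-biased programme in the Gstp1 difference was not tested.

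Among the alpha genes, Gsta3, the most abundant, was at 867, 897 and 982 CPM on 50 ppm and at 561, 766 and 655 CPM on 2% iron. These groups did not overlap, and the log2 change was -0.47 ± 0.15 with an adjusted p of 0.0517, which just missed the threshold; it was called in 4 of 13 alternatives. Gsta4, whose enzyme acts on the lipid aldehyde 4-hydroxynonenal, was at 13.4, 10.8 and 13.5 CPM on 50 ppm and at 20.4, 19.2 and 18.3 CPM on 2% iron. Its groups did not overlap either, with a log2 change of 0.62 ± 0.31 (adjusted p = 0.194). Gsta2 changed by 0.73 ± 0.52 (adjusted p = 0.369). Gsta1 was the least precise member, at 0.48, 0.29 and 1.74 CPM on 50 ppm and at 2.15, 1.16 and 7.59 CPM on 2% iron, with 3 diet libraries under 10 counts. Its log2 change was 2.05 ± 0.98 (adjusted p = 0.178). Gstt1, the theta-class gene that acts on small halogenated compounds, was at 120, 163 and 145 CPM on 50 ppm and at 144, 158 and 154 CPM on 2% iron. Its log2 change was 0.09 ± 0.12 (adjusted p = 0.653).

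One mouse decided part of this comparison. Without replicate 1 of the 50 ppm group, or without replicate 3 of the 2% group, the count of called members fell from 4 to 1, which was Gstm3 in both cases. Without replicate 3 of the 50 ppm group it was 2, Gstm3 and Gstp1. Gstm1 and Gstm2 were each called in 10 of 13 alternatives. Without the library under 2 labels, which belongs to neither group but enters the spread estimate, 6 members were called: the same 4, Gsta3 (log2 change -0.47, adjusted p = 0.0335) and Gstm4 (-0.52, adjusted p = 0.0458). The share of all genes called in each of these fits is not given here. The counts therefore cannot be set against it or read as particular to the members.

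**Figure D2:**
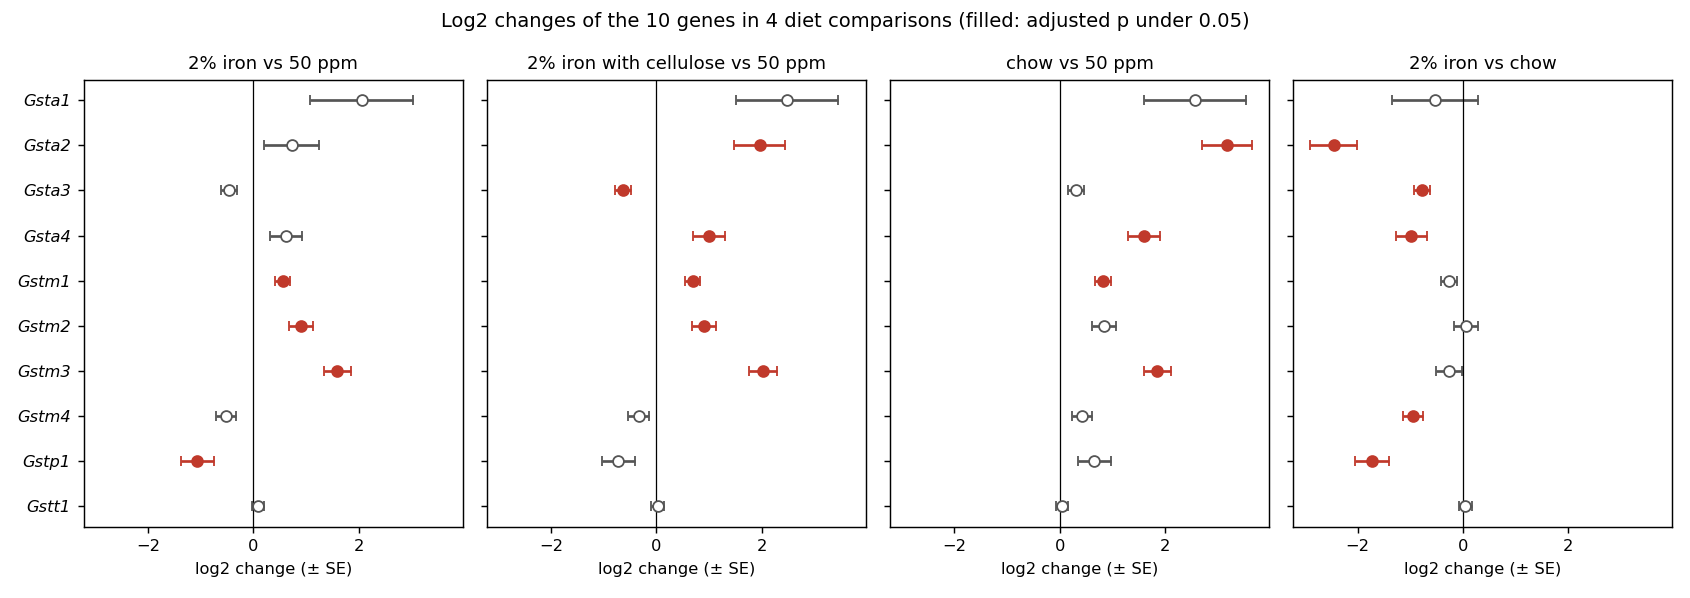
Log2 changes (horizontal axis, point and SE from the edgeR fit) of the 10 genes (vertical axis) in 4 diet comparisons. Filled points passed an adjusted p of 0.05. Gstm3 was 1.59 to 2.02 above 50 ppm in the first 3 panels, while Gstp1 was below 50 ppm on both 2% diets and 0.66 above it on chow.

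Against 500 ppm, 2% iron gave 2 called members, with 11.3% of all genes called (6.59% higher, 4.75% lower). Of the called genes 58.1% were higher, against 74.7% and 73.8% in limma on the TPM scales. Gstm3 rose by 1.27 ± 0.25 (edgeR, adjusted p = 0.00627) from 20.6, 28.8 and 29.3 CPM on 500 ppm, and Gstm2 rose by 0.77 ± 0.23 (adjusted p = 0.0452) from 45.1, 30.2 and 50.5 CPM. Gstm3 was called in all 13 alternatives and Gstm2 in 5, and Gstm3 alone was called without any 1 of the 2% mice or without replicate 1 or 3 of the 500 ppm group. Gstp1 (log2 change -0.81 ± 0.32, adjusted p = 0.114) and Gstm4 (-0.57 ± 0.19, adjusted p = 0.0702) had the sign they had against 50 ppm, with the same 2% mice in both comparisons. Without the library under 2 labels 2 members were called as well, but they were Gstm3 and Gstm4 (log2 change -0.75, adjusted p = 0.0143), while Gstm2 (0.58, adjusted p = 0.111) was not.

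Between 500 and 50 ppm no member was called, and 0% of all genes were (0 of 13560 in edgeR, with 428 at an unadjusted p under 0.05, and 2 in DESeq2). Among the members, Gsta4 alone had an unadjusted p under 0.05 (0.0440), at 15.1, 31.1 and 13.1 CPM on 500 ppm. The value of 31.1 CPM is that of the library under 2 labels, which was also highest of its group for Gsta2 (7.70 CPM against 3.36 and 4.46) and for Hmox1, the iron- and NRF2-responsive heme oxygenase (44.7 CPM against 7.14 and 9.49, with a mean of 51.8 ± 7.08 CPM, SD, n = 3, on 2% iron). Without it no member was called either, and the log2 change of Gsta4 was 0.16.

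The 2% diet labelled with cellulose was compared with the other 2% diet, for which the labels name no fibre source. No member was called, in a comparison where 0.0811% of all genes were (11 of 13560, 0.00737% higher and 0.0737% lower, with 1757 at an unadjusted p under 0.05). Of the called genes 9.09% were higher, against 27.8% and 16.7% of 18 in limma on the TPM scales and 43.8% of 219 in DESeq2. DESeq2 called no member either. Gsta2 was at 14.7, 13.7 and 3.85 CPM with cellulose and at 4.39, 3.56 and 5.72 CPM without it. Replicate 3 of the cellulose group thus lay within the range of the 2% diet while the other 2 lay above it, and the log2 change was 1.23 ± 0.45 (unadjusted p = 0.0168, adjusted p = 0.276, edgeR). Without replicate 3 it was 1.64 and passed the test (adjusted p = 0.0397). Nqo1, a standard NRF2 target, was likewise lowest in replicate 3 of the cellulose group, at 18.8, 19.4 and 9.70 CPM with cellulose and 10.2, 9.33 and 8.70 CPM without. The part of this mouse in the difference was not tested further.

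With cellulose, the 2% diet differed from 50 ppm in 6 members, with 29.7% of all genes called (15.4% higher, 14.3% lower). Of the called genes 51.7% were higher, against 73.7% and 72.5% in limma on the TPM scales. Gstm3 rose by 2.02 ± 0.26 (edgeR, adjusted p = 0.000177) to 74.2, 112.1 and 70.8 CPM, Gsta2 by 1.96 ± 0.48 (adjusted p = 0.00850), Gsta4 by 0.99 ± 0.30 (adjusted p = 0.0248), Gstm2 by 0.90 ± 0.23 (adjusted p = 0.0105) and Gstm1 by 0.69 ± 0.15 (adjusted p = 0.00403). Gsta3 fell by 0.64 (SE 0.15, adjusted p = 0.00721) to 607, 603 and 554 CPM. Gstm3, Gsta2 and Gstm1 were called in all 13 alternatives, Gstm2 in 12, Gsta3 in 11 (lost on both TPM scales) and Gsta4 in 8. Gstm2 and Gstm1 had changes close to those without cellulose. Gstp1 was at 228, 220 and 147 CPM, a log2 change of -0.72 ± 0.31 (adjusted p = 0.0990). The 2 comparisons with 50 ppm share the same control mice.

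Chow against 50 ppm gave few changed genes but 4 of the 10 GST genes, all higher on chow. Of all genes tested, 0.391% (53) were called, 36 higher (0.265%) and 17 lower (0.125%). All 10 log2 changes were above 0, with a median of 0.83 against 0.00 over all genes.

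Gsta2 was at 21.5, 36.9 and 16.6 CPM on chow and at 3.20, 2.32 and 2.73 CPM on 50 ppm, without overlap. It rose by 3.18 ± 0.48 (edgeR, adjusted p = 0.0144). Gstm3 was at 68.8, 109 and 51.1 CPM on chow and rose by 1.85 ± 0.26 (adjusted p = 0.00924). Gsta4 was at 38.7, 47.3 and 28.5 CPM and rose by 1.60 ± 0.30 (adjusted p = 0.0383). Gstm1 was at 1056, 1293 and 1026 CPM and rose by 0.82 ± 0.15 (adjusted p = 0.0363). In each of these genes the lowest chow mouse exceeded the highest 50 ppm mouse. The sum of Gsta1, Gsta2 and their predicted copies Gm3776 and Gm10639 was 32.3 ± 15.7 CPM on chow and 4.23 ± 0.84 CPM on 50 ppm (SD, n = 3). Gstm2 (0.84 ± 0.23, adjusted p = 0.193), Gsta1 (2.58 ± 0.97, adjusted p = 0.353) and Gstp1 (0.66 ± 0.31, adjusted p = 0.501) did not pass, although the chow mice of Gstm2 (65.0, 86.5 and 54.4 CPM) all lay above its 50 ppm mice and DESeq2 called it. Gsta2 and Gstm3 were each called in 10 of 13 alternatives, Gsta4 in 6 and Gstm1 in 5. No member was called without replicate 2 or without replicate 3 of the 50 ppm group, 1 without chow replicate 2, and 2 without 50 ppm replicate 1 or chow replicate 1. The log2 change of Gsta2 stayed between 2.78 and 3.40 in all 13 alternatives.

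Chow and 2% iron were also compared directly, where 22.8% of all genes were called (11.9% higher and 10.9% lower on 2% iron). Of the called genes 52.1% were higher, against 71.0% and 71.7% in limma on the TPM scales. The called members were 5, and each was lower on 2% iron. Gsta2 fell by 2.45 on the log2 scale (SE 0.45, edgeR, adjusted p = 0.00176) and Gstp1 fell by 1.72 (SE 0.32, adjusted p = 0.00208) from 603, 607 and 338.4 CPM on chow. Gsta4 fell by 0.98 (SE 0.29, adjusted p = 0.0266), Gstm4 fell by 0.95 (SE 0.19, adjusted p = 0.00348) and Gsta3 fell by 0.78 (SE 0.15, adjusted p = 0.00286). Gsta2, Gsta3, Gstm4 and Gstp1 were called in each of 13 alternatives and Gsta4 in 6. Gstm1, Gstm2 and Gstm3, the members that rose on 2% iron against 50 ppm, differed between chow and 2% iron by -0.27 ± 0.15, 0.06 ± 0.23 and -0.26 ± 0.25 and did not pass.

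The order of diets by mean level therefore varied by gene. For Gsta2 it ran from 50 ppm over 2% iron (4.56 CPM), 500 ppm (5.17) and 2% iron with cellulose (10.8) to chow (25.004), and the steps from 50 ppm to 2% iron and from cellulose to chow were without overlap. Without the library under 2 labels, 500 ppm (3.91 CPM) came before 2% iron. For Gstm3 the only step without overlap between neighbouring diets was from 500 ppm (26.2 CPM) to 2% iron (63.6 CPM). For Gstp1 it was from 2% iron with cellulose (198 CPM) to 500 ppm (276 CPM, or 296.8 CPM without the library under 2 labels). Gsta3, Gsta1 and Gstt1 had no such step. Without the library under 2 labels, Gsta3 had one from 2% iron (660.5 CPM) to 500 ppm (903.6 CPM) and Gsta4 from 500 ppm (14.1 CPM) to 2% iron (19.3 CPM). Gstt1 means stayed between 143 and 159 CPM on all 5 diets with all libraries.

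Other genes of the glutathione and stress pathways were read from lists. Of 15 tested genes for other GSTs, 1 rose and 4 fell on 2% iron against 50 ppm. Gstp3 rose by 0.85 ± 0.24 and Gstp2 fell by 1.12 (SE 0.33), Gstt2 fell by 0.85 (SE 0.19) and the abundant microsomal Mgst1 fell by 0.60 (SE 0.14). The fourth was Gstz1 (-0.41 ± 0.09), named after its value was seen because it fell outside the naming rule. In the list of 21 tested genes of glutathione synthesis, recycling and peroxidases, 1 rose and 5 fell. Gpx3, a secreted glutathione peroxidase, rose by 1.94 ± 0.33. The glyoxalase genes Hagh and Glo1, which clear methylglyoxal with glutathione, fell by 0.71 (SE 0.13) and 0.67 (SE 0.12), and Chac2 fell by 0.62 (SE 0.14). Gpx1 (-0.44) and Lap3 (-0.56), the other 2, were named after their values were seen.

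Of 32 NRF2 pathway genes tested, 5 rose and 1 fell, with a median log2 change of 0.17. Hmox1 rose by 2.36 ± 0.52, Nqo1 by 1.46 ± 0.30 and Srxn1, which repairs peroxiredoxins, by 0.76 ± 0.18. Pgd (1.07) and Keap1 (0.35) were the other 2 rises, named after their values were seen. Aldh1a1 fell by 0.89 (SE 0.21). Of 24 CAR, PXR and AHR genes, 3 rose (Cyp2b9, Cyp2b10 and Arnt) and 2 fell (Ces2a and Nr1i3, the gene of CAR itself). Cyp2b10, the classical CAR target, was at 32.5 ± 4.22 CPM on 2% iron and 0.67 ± 0.64 CPM on 50 ppm (SD, n = 3). All 17 male-biased genes fell (median log2 change -3.48), led by Mup7, Mup17 and Mup15, and 3 of 16 female-biased genes rose (Cyp2a4, Cyp2b9 and Fmo2). These counts were taken at 15.7% of all genes called.

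The same lists were read on chow against 50 ppm, where 0.391% of all genes were called, against 15.7% for 2% iron. Counts of called genes in the 2 comparisons are therefore not directly comparable. Of the NRF2 list, 3 of 32 genes rose (Aox1, Cyp2a5 and Abcc3, chosen after their values were seen), and neither Hmox1 nor Nqo1 passed. Nqo1 was at 5.67 ± 2.37 CPM on chow and 3.40 ± 0.55 CPM on 50 ppm. Of the receptor list, 5 of 24 rose: Cyp2b10, Cyp2c55, Cyp2c29, Cyp2c50 and Ces2a. They include CAR and PXR targets and were likewise named after their values were seen. Cyp2b10 was at 48.6 ± 48.4 CPM on chow. None of the 15 other GST genes, the 17 male-biased or the 16 female-biased genes passed. With so few of all genes called, a list of this size without a call cannot be told from other genes.

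Strains on the 2% iron diet differed more in some members than in others. On the log2 scale the SD between strains was 1.64 for Gsta1, 1.20 for Gstm3 and 1.12 for Gsta2, and 0.39 to 0.67 for the other 7. The median SD was 0.35 over the 13410 genes tested in both sets. Among these genes the members lay between percentiles 56.4 (Gsta3) and 98.2 (Gsta1) of the SD between strains. With 1 mouse per strain, this spread includes differences between mice. As a yardstick, the SD within diet groups of C57BL/6J mice was 1.27 for Gsta1, 0.34 for Gstm3 and 0.63 for Gsta2. The ratio of the 2 spreads was largest for Gstm3 (3.49), followed by Gstt1 (3.12) and Gstm1 (2.59), and was 1.296 for Gsta1 and 1.33 for Gstp1. Leaving the library under 2 labels out of the SD within diet groups alone made these ratios 3.36, 3.06, 2.46, 1.36 and 1.29. The SD between strains still held it. With all libraries, the median ratio was 1.90 over the members and 1.65 over 13410 genes.

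Gsta1 ran from 0 CPM in RIIIS/J over a median of 3.69 to 117 CPM in NZB/BlNJ, with 11 of 115 panel libraries under 10 counts. Gsta2 ran from 1.68 CPM in BXA13/PgnJ over 10.3 to 108 CPM in NZB/BlNJ. Gsta3 spanned 276 CPM in NZB/BlNJ to 1074 CPM in AXB4/PgnJ (median 724). The strain that was highest for the first pair was thus lowest for Gsta3. Gsta4 ran from 11.4 CPM in LP/J to 67.4 CPM in CE/J, with a median of 33.03.

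Gstm1 ran from 461 CPM in BXD48/RwwJ over a median of 944 to 3230 CPM in BXD74/RwwJ. Gstm2 spanned 6.82 CPM in NZW/LacJ to 158 CPM in BXD21/TyJ (median 45.6). Gstm3 ran from 2.18 CPM in BALB/cByJ over 41.8 to 250.8 CPM in KK/HlJ. The next lowest strains for Gstm3 were CXB2/ByJ (3.68 CPM) and CXB7/ByJ (4.75 CPM), 2 strains of a family bred from BALB/cBy and C57BL/6By mice, while the single C57BL/6J panel mouse had 53.2 CPM. The third CXB strain, CXB12/HiAJ, had 22.4 CPM. Gstm4 ran from 12.1 CPM in BXD73/RwwJ over 25.4 to 73.8 CPM in NZW/LacJ.

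Gstp1 ran from 78.8 CPM in BXD55/RwwJ over a median of 152 to 645 CPM in CBA/J. The library labelled BXD65/RwwJ ranked 109 of 114 for Gstp1 (97.6 CPM) and between 32 and 76 for the other 9 genes. Gstt1 ran from 41.1 CPM in NZB/BlNJ over 147 to 226 CPM in C57BLKS/J.

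**Figure D3:**
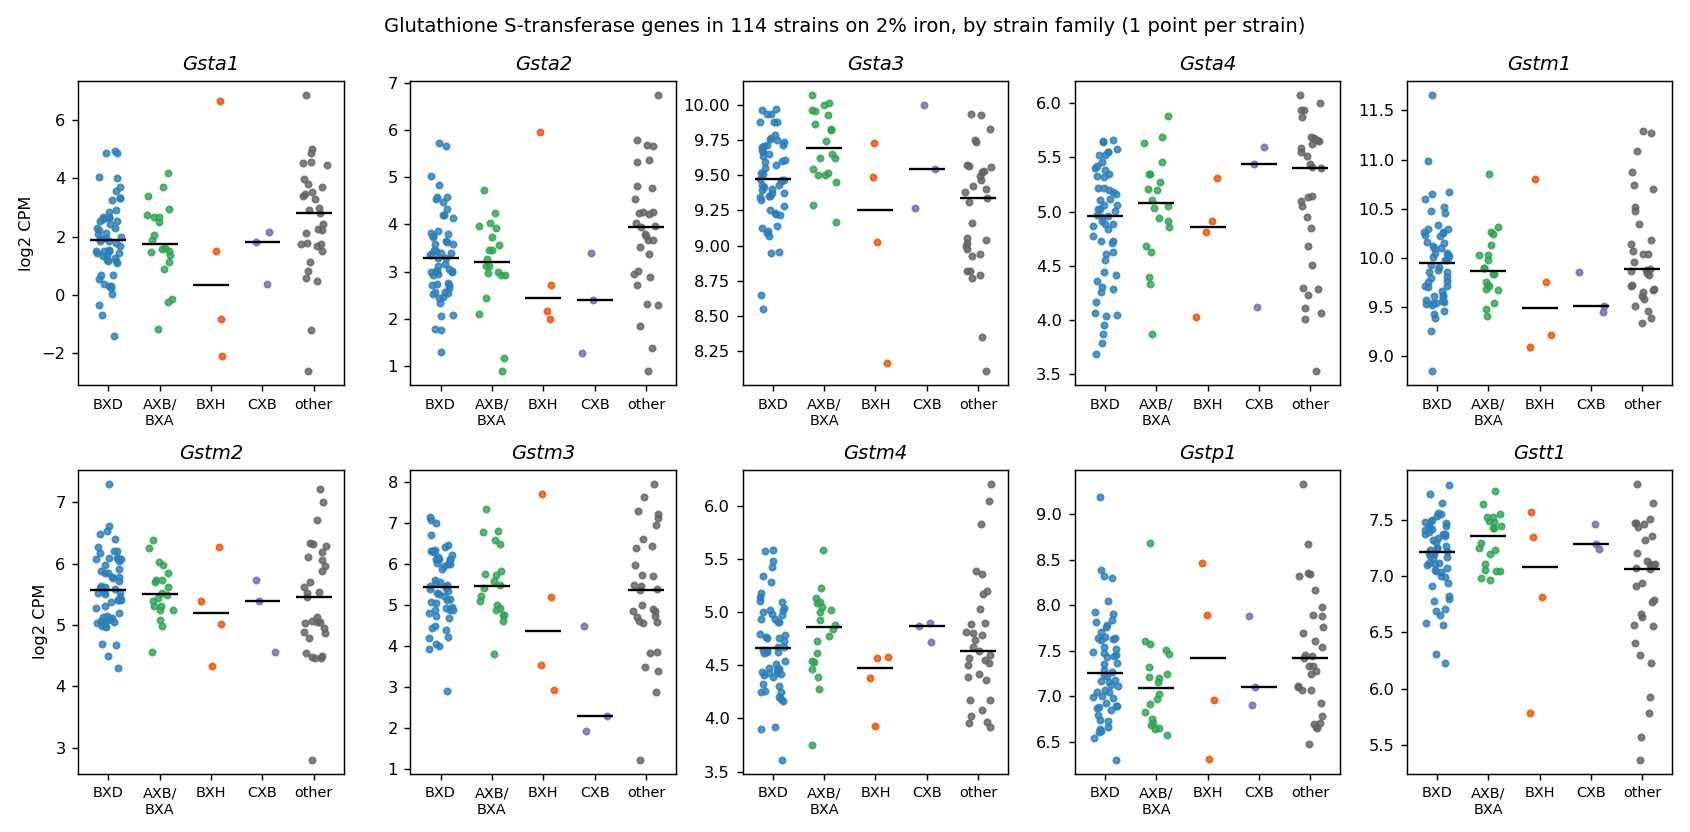
Log2 CPM (vertical axis) of the 10 genes by strain family (horizontal axis) on 2% iron, 1 point per strain, with the median as a bar. In the BXH family 1 strain (BXH2/TyJ) stands far above the other 3 in Gsta1, Gsta2 and Gstm3, and Gstm3 is low in 2 of the 3 CXB strains.

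A few strains were extreme in several genes at once. NZB/BlNJ ranked first of 114 for Gsta1 and Gsta2 and had rank 3 for Gstm1 (2461 CPM), and was last for Gsta3 and Gstt1. BXH2/TyJ ranked second for Gsta1, Gsta2 and Gstm3 (211 CPM), and 113 and 111 for Gsta3 and Gstt1. NZW/LacJ ranked first for Gstm4 and second for Gstm1 (2499 CPM) but last for Gstm2. LG/J ranked second for Gstm2 (149 CPM) and 107 for Gstm3 (11.1 CPM). Each of these strains is represented by 1 mouse.

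BXD strains often lay above both parents in the alpha genes, and also in Gstm1 and Gstt1. Of 56 BXD strains, 52 exceeded both the C57BL/6J mouse (531 CPM) and the DBA/2J mouse (517.4 CPM) in Gsta3. The count was 51 for Gsta2, where the parents were at 2.45 and 4.74 CPM, and 47 each for Gsta1 and Gsta4. It was 43 for Gstm1, 38 for Gstt1, 22 for Gstm3, 14 for Gstm2 and 7 for Gstm4. For Gstp1, with parents at 134 and 325 CPM, 34 strains lay between, 20 below and 2 above. Each parent is a single mouse, so these counts move with that mouse. In the AXB/BXA family, where the A/J mouse had 61.3 CPM of Gsta4 and the C57BL/6J mouse 19.3 CPM, 19 of 20 strains lay between. Above both parents in this family were 16 strains for Gstm4, 15 for Gstm1, 10 for Gstp1, 8 for Gstm3 and 5 for Gstt1. The count was 6 for Gsta3, 3 for Gsta2, 2 each for Gsta1 and Gstm2, and 0 for Gsta4.

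Family averages of the members were close. Between BXD and AXB/BXA strains 1 member was called, with 11.6% of all genes called (6.62% higher, 5.02% lower in BXD). Gsta3 was lower in BXD, at a median of 708.9 CPM (range 375.2 to 1002) against 828.7 CPM (range 575 to 1074) in AXB/BXA, a log2 difference of -0.22 ± 0.07 (edgeR, adjusted p = 0.0455). The ranges overlap over most of their length. The call was lost in 6 of 9 alternatives with differences of -0.19 to -0.22, among them the one without the library labelled BXD65/RwwJ (adjusted p = 0.0515). It held without the library under 2 labels.

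Across the 114 strains, of 55 relations computed (45 pairs of members and each member with Nqo1), 30 passed for Pearson's r (27 of them positive) and 28 for Spearman's rho, at a Benjamini-Hochberg adjusted permutation p under 0.05. The smallest p that 100000 permutations can give is 1e-05. No gene's strains fell into separate clusters by the mixture rule. Within families, 27 relations passed in the 56 BXD strains, 5 in the 20 AXB/BXA strains and 11 in the 31 other inbred strains. Over all strains, 30 and 28 relations also passed when the library under 2 labels was left out. The share of relations that pass among other genes was not computed. These counts therefore cannot be set against it or read as particular to the members.

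Gsta1 and Gsta2, the pair that shares most sequence, had r = 0.75 and rho = 0.80 (permutation p = 1e-05 each, adjusted 5e-05 and 3.67e-05). Without the 2 strains farthest from the median, NZB/BlNJ and BXH2/TyJ, r was 0.71, and within families it was 0.85 in BXD, 0.81 in AXB/BXA and 0.57 in the other strains. The share of this relation due to shared reads was not tested.

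Gsta3 and Gstt1, on different chromosomes and with nearly all transcript words unique, had r = 0.74 and rho = 0.69 (permutation p = 1e-05 each, adjusted 5e-05 and 3.67e-05). Without NZB/BlNJ and BXH2/TyJ r was 0.68. It was 0.58 in BXD, 0.51 in AXB/BXA (permutation p adjusted 0.111, n = 20) and 0.77 in the other strains. Gsta4 was linked with both, at r = 0.47 with Gsta3 and 0.42 with Gstt1 (adjusted permutation p = 5e-05 each), and rho = 0.46 and 0.45. Without its own 2 farthest strains, LP/J and BXD24/TyJ-Cep290<rd16>/J, r of Gsta4 with Gstt1 was 0.40. Without NZB/BlNJ and BXH2/TyJ, r of Gsta3 with Gsta4 was 0.48. Within BXD these relations had r = 0.53 and 0.58, and in AXB/BXA 0.43 and 0.45, where neither passed.

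Gsta4 was linked with Gsta2 as well (r = 0.52, rho = 0.56, adjusted permutation p = 5e-05 and 3.67e-05), with r = 0.60 without NZB/BlNJ and BXH2/TyJ, 0.55 in BXD and 0.54 in the other inbred strains, both of which passed, and 0.46 in AXB/BXA, which did not. With Gsta1 and Gstm1 its r was 0.36 each (rho = 0.45 and 0.32, adjusted permutation p = 0.000169 and 0.000518 for r), and 0.43 and 0.37 without the 2 farthest strains. Within BXD these relations had r = 0.52 and 0.42, and both passed. In AXB/BXA r was 0.66, which passed, and 0.47, which did not. In the other inbred strains r was 0.05 and 0.26, and neither passed.

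Gsta2, Gsta1 and Gstm1 were linked with each other and with Nqo1. Gsta2 and Gstm1 had r = 0.68 and rho = 0.59 (permutation p = 1e-05 each, adjusted 5e-05 and 3.67e-05), 0.64 without the 2 farthest strains, and r of 0.66, 0.63 and 0.62 in BXD, AXB/BXA and the other strains, all of which passed. With Nqo1, r was 0.59 for Gsta2, 0.56 for Gstm1 and 0.54 for Gsta1 (rho 0.45, 0.46 and 0.42, adjusted permutation p = 5e-05 for each r and 3.67e-05 for each rho). Without the 2 farthest strains these were 0.53, 0.51 and 0.47. Gstm2 (r = 0.36, rho = 0.49) and Gstm3 (r = 0.29, rho = 0.34) also passed with Nqo1 in all strains (adjusted permutation p = 0.000367 and 0.00286 for r). In the 31 other inbred strains r was 0.12 and 0.04, and neither passed. Gsta3, Gsta4, Gstm4, Gstp1 and Gstt1 did not pass with Nqo1.

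**Figure D4:**
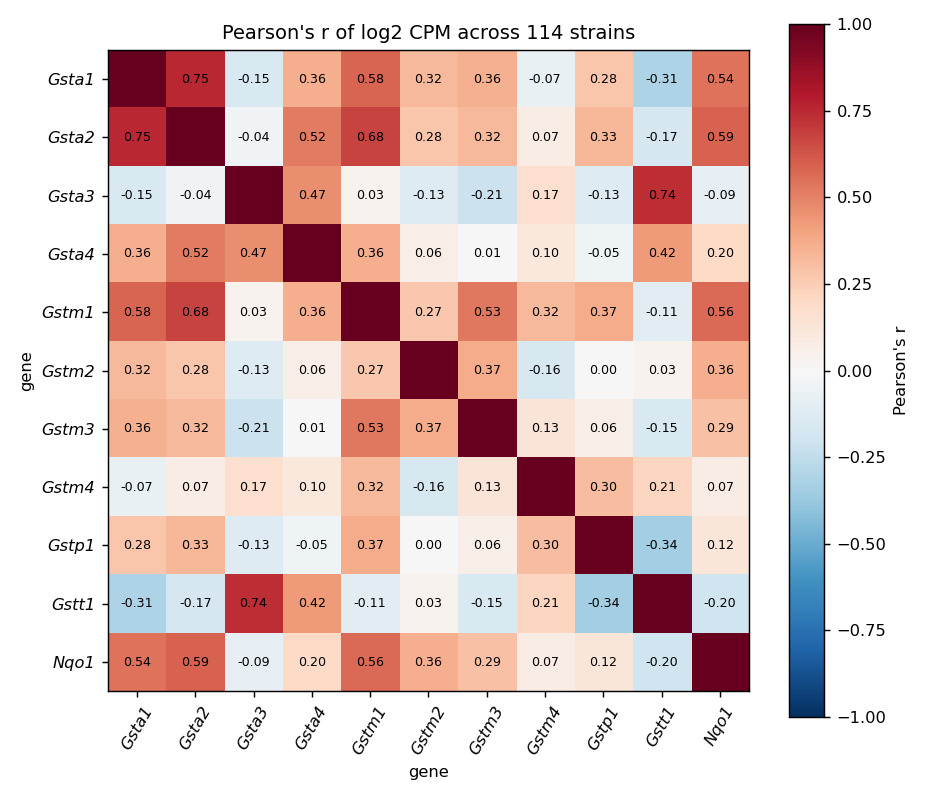
Pearson's r of log2 CPM across 114 strains for each pair of the 10 genes and Nqo1 (both axes list genes, colour and number give r, and the diagonal is 1). The highest values off the diagonal are 0.75 for Gsta1 with Gsta2 and 0.74 for Gsta3 with Gstt1.

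Among the mu genes, Gstm1 and Gstm3 had r = 0.53 and rho = 0.50 (permutation p = 1e-05 each, adjusted 5e-05 and 3.67e-05), and r = 0.53 without BXD74/RwwJ and NZW/LacJ. Gstm2 and Gstm3 had r = 0.37 and rho = 0.54 (adjusted permutation p = 0.000196 and 3.67e-05), and r = 0.40 without NZW/LacJ and BXD21/TyJ. For that pair r was 0.69 in BXD, 0.87 in AXB/BXA and 0.05 in the other inbred strains, where it did not pass (adjusted permutation p = 0.886). The difference between families was not tested. Gstm4 passed with Gstm1 (r = 0.32, rho = 0.29, r = 0.25 without the 2 farthest strains) but not with Gstm2 (r = -0.16) or Gstm3 (r = 0.13).

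Some positive relations that passed for r over all strains were not named above. For Gstp1 they were with Gstm1 (r = 0.37), Gsta2 (0.33), Gstm4 (0.30) and Gsta1 (0.28). Those with Gsta1 and Gsta2 passed in none of the 3 families alone. Gstm2 passed with Gsta1 (0.32), Gsta2 (0.28) and Gstm1 (0.27). Gstm3 passed with Gsta1 (0.36) and Gsta2 (0.32), and Gstm4 with Gstt1 (0.21). Only 3 relations that passed for r were negative. Gstp1 and Gstt1 had r = -0.34 and rho = -0.35 (adjusted permutation p = 0.000856 and 0.000812), -0.34 without CBA/J and BXD14/TyJ, and r of -0.23, -0.31 and -0.31 in the 3 families, none of which passed alone. The negative r of Gsta1 with Gstt1 (-0.31, rho = -0.11) was -0.16 without NZB/BlNJ and BXH2/TyJ, 0.10 within BXD and -0.47 in the other inbred strains (adjusted permutation p = 0.0381), a family that holds NZB/BlNJ. Gsta3 with Gstm3 (r = -0.21, rho = -0.13) was at -0.14 without the same strains. Neither relation was tested without them.

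**Figure D5:**
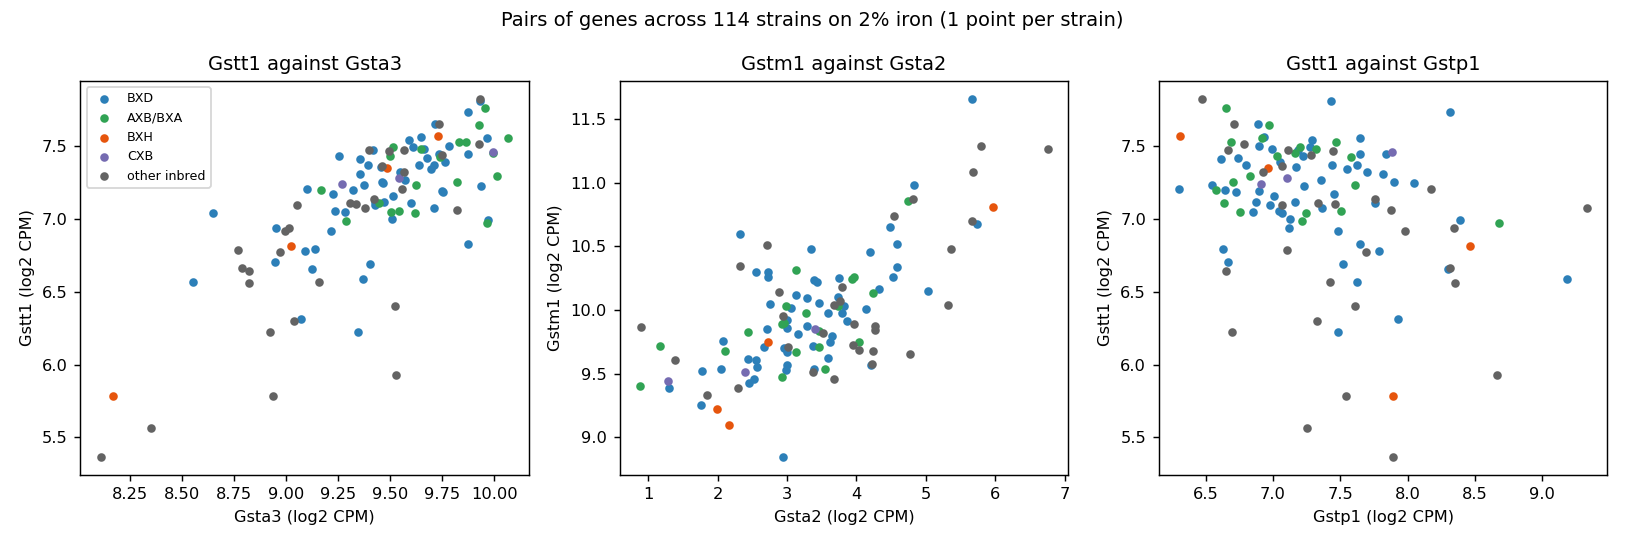
Log2 CPM of 3 gene pairs across 114 strains (axes as labelled, 1 point per strain, colour by family). Gstt1 rises with Gsta3 (r = 0.74) and Gstm1 with Gsta2 (r = 0.68), while Gstt1 declines with Gstp1 (r = -0.34).

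The genes most like each member over the 114 strains were sought among 13873 protein-coding genes by Spearman's rho. The other members and genes with only a provisional name were left out of this search. A member can thus lie nearer than the genes named here, as Gsta2 does to Gsta1 (rho = 0.80). The values are given as a description since all points share library and depth. Gstt1 was nearest to Papss2 (rho = 0.81), Maob (0.79) and Macrod1 (0.77), and Gsta3 to Hpd (0.71), Marc2 (0.70) and Papss2 (0.69). Gsta1 and Gsta2 had the same 3 nearest genes, Fth1 (ferritin heavy chain, rho = 0.60 and 0.59), C1qbp (0.53 and 0.61) and Ncl (0.53 and 0.55). Gsta4 was nearest to Bckdhb (0.57), Gstt3 (0.54) and Mpc2 (0.53).

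Gstm1 was nearest to Tkt (0.52), Ephx1 (0.51) and Pir (0.49). Gstm2 was nearest to Slc1a5 (0.54), Socs2 (0.54) and Lacc1 (0.52), and Gstm3 to Cfl1 (0.56), Mif (0.55) and Vat1 (0.55). Gstm4 was nearest to Aldh1a7, Psmd2 and Lactb2 (0.60 each). Gstp1 had its neighbour Gstp2 first (0.90), with which it shares reads, then Ephx1 (0.57) and Ugdh (0.55).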

How the data were processed

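The authors deposited 2 tables per set, one with expected counts per gene and one with TPM, without further normalization of the counts as judged from the values. Per the submitters' processing notes, kallisto 0.46 and the mm10 build were used. The panel tables name Ensembl release 97. How reads were summed per gene is not given in the sources used here. Per the labels' protocols, libraries were made from total RNA with a stranded mRNA kit.

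Expected counts were rounded to whole numbers. Differences were tested two-sided in edgeR 4.0.16 (R 4.3.3; quasi-likelihood, TMM, filterByExpr), with Benjamini-Hochberg adjustment over every gene in the fit and a threshold of 0.05. One model held all 5 diets and gave 7 contrasts, and BXD and AXB/BXA in a fit of their own. SE is the log2 change divided by the root of F. CPM are TMM-scaled, and log2 CPM used a prior count of 2. The labels do not say that mice of a group were housed or processed apart, so p-values measure the spread between these mice. No 2 libraries of a set were identical (105 and 6555 pairs), but among 1725 pairs across sets 1 library stands under 2 labels; pairs were compared by the chi-square of rounded counts over shared genes with a mean of at least 10 counts.

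The members and lists were chosen with earlier results of these data known. All members are named everywhere. For other lists the 3 largest rises and falls on 2% iron against 50 ppm were named, if called, above 1 CPM on average and without overlapping groups. Correlations used the mean of 129X1/SvJ and 100000 permutations. A gene counted as clustered at an Ashman D above 3 and a BIC gain above 10. Alternatives were RLE factors, other filters, the compared groups alone, DESeq2 1.42.0, limma 3.58.1 on log2(TPM + 1) and log2(TPM + 0.1), each mouse left out, panel subsets and, added after the data were seen, the fits without the library under 2 labels. The test was run on simulated data. Symbols came from GENCODE M21 and matched 34845 of 35274 and 35612 of 35711 identifiers. Sequences are from RefSeq, without the bases that GENCODE places in exons except around the Gstp1 site. Python 3.11.15, numpy 2.4.6, scipy 1.17.1, pandas 2.3.3, scikit-learn 1.9.0, biopython 1.88 and matplotlib 3.10.9 were used.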

Additional observations from a re-analysis of the deposited data

Results flagged for a closer look

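BXH2/TyJ stood apart from the other 3 BXH strains in 3 of the 10 genes by Dixon's test on CPM. Among normally distributed values chance meets this in about 1 of 20 groups. CPM across strains are skewed (Gsta1 had a median of 3.69 and a highest value of 117 CPM), so that rate need not hold. The test was not run on log2 CPM, and the 3 flags come from the same BXH2/TyJ mouse. Gsta1 was at 101 CPM there against 0.0699 to 2.70 CPM in the others, Gsta2 at 62.5 CPM against 3.82 to 6.45 CPM, and Gstm3 at 211 CPM against 7.55 to 36.96 CPM. The strain is represented by 1 mouse, and Gsta1 and Gsta2 share reads.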

How the results depend on the processing

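The count of called members moved by over 1.5 times in these cases. For 2% iron against 500 ppm (2 members), DESeq2 gave 4 and limma 1 on both TPM scales. Over all genes the calls were 1538 in the fit reported above, 1806 in DESeq2 and 910 and 862 in limma. For chow against 50 ppm (4), the 2 groups alone and limma on both scales gave 2. Limma called 21 and 14 of all genes there, against 53 in the fit reported above. For BXD against AXB/BXA (1), no filter, limma on both scales, the fit without the library labelled BXD65/RwwJ, 1 of each closely named set and all panel libraries gave 0. Limma called 906 and 917 of all genes in this comparison, against 1606 in the fit reported above. Leaving out 1 mouse gave 1 to 4 members for 2% iron against 50 ppm, 1 to 2 against 500 ppm, 4 to 5 against chow, 0 to 1 for cellulose against 2% iron, 4 to 6 for cellulose against 50 ppm, 0 for 500 against 50 ppm and 0 to 4 for chow against 50 ppm. Totals over all genes are not given here for the remaining fits, among them those that left out 1 mouse or the library under 2 labels. Their counts of members cannot be set against such totals. The cause was not tested. The alternatives gave 30 to 34 called relations between genes.

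Changes of sign occurred only in log2 changes or relations that had not passed. When 1 mouse was left out, Gstt1 ran from -0.019 to 0.20 for 2% iron against 50 ppm. Against 500 ppm, Gsta2 ran from -0.44 to 0.21 and Gsta4 from -0.29 to 0.45. Against chow, the ranges were -1.65 to 0.30 for Gsta1, -0.085 to 0.26 for Gstm2, -0.49 to 0.081 for Gstm3 and -0.035 to 0.15 for Gstt1. For cellulose against 2% iron, Gstm2 ran from -0.090 to 0.13, and against 50 ppm Gstt1 ran from -0.086 to 0.13. For 500 against 50 ppm, the ranges were -0.49 to 1.78 for Gsta1, -0.022 to 0.43 for Gstm2, -0.20 to 0.23 for Gstm4 and -0.49 to 0.28 for Gstp1. For chow against 50 ppm, Gstt1 ran from -0.072 to 0.15. On log2(TPM + 1) and log2(TPM + 0.1) in limma, Gsta4 was 0.136 and 0.145 and Gstt1 0.0160 and 0.0161 for 2% iron against 500 ppm, Gstt1 was -0.00500 and -0.00490 for chow against 50 ppm, and Gstm2 was 0.0851 and 0.0857 for cellulose against 2% iron. On the second scale Gsta1 was -0.0418 for 500 against 50 ppm. Gstm2 for cellulose against 2% iron (-0.00063) was also 0.00767 with RLE, 0.00424 with no filter, 0.00952 with at least 10 counts, 4.91e-06 in the 2 groups alone and 0.00741 in DESeq2. Centred within families, r of Gsta2 with Gsta3 was 0.0609. TPM scales moved the median of all genes by up to 0.14 (cellulose against 50 ppm). Without the library under 2 labels, chosen after seeing the data, the count of called members was 6 for 2% iron against 50 ppm and unchanged in the other 6 diet comparisons and between BXD and AXB/BXA. No paired analysis was possible because replicate numbers only follow accession order.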
